A study of Mus musculus with 4 samples.

Results

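The cells described here are endothelial barcodes of the injured mouse kidney that held no Plvap transcript but at least 1 transcript of Ehd3 or Sox17. They numbered 123 of 37839 barcodes kept for analysis, out of 43378 deposited. A barcode was a member when its raw UMIs (unique molecular identifiers, each counting 1 captured transcript) of Flt1, Emcn, Pecam1 and Kdr summed to at least 3, with at least 1 UMI of Ehd3 or Sox17, none of Plvap or Ptprc and at most 1 of Lrp2. Of the members, 36 held an Ehd3 UMI and 87 held Sox17 alone, and the pair of groups is described apart. They were set against 650 Plvap-positive endothelial barcodes that met the same endothelial, Ptprc and Lrp2 conditions. Members were thus chosen by measured values, and the levels of these 9 genes are descriptions without a test.

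The 4 libraries came from kidneys of male C57BL/6 mice after ischemia-reperfusion injury, in which blood flow to the kidney is stopped and then restored. In the Lac.z day 5 library the mice had received Lactobacillus casei Zhang (Lac.z), a probiotic bacterium, by gavage for 4 weeks before injury, and the kidney was taken on day 5. The dose was 1000000000 colony-forming units a day. The day 5, day 14 and day 28 libraries came from injured mice without Lac.z. Whole kidney was digested with enzymes, strained and cleared of red cells, with no sort for endothelium. Each group was 1 library, the sources used here do not give its number of animals, and an uninjured kidney was not analysed here. Differences between libraries therefore have no replicate check and no test, and intervals printed for them cover counting error only.

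The kidney holds several kinds of endothelium. Glomerular capillaries filter plasma through open fenestrae, which in the adult lack the diaphragms built from the Plvap protein, and they carry the endocytic protein Ehd3. Peritubular capillaries and ascending vasa recta have fenestrae closed by Plvap diaphragms. Arteries and arterioles have a continuous endothelium that keeps the transcription factor Sox17. The descending vasa recta, which carry blood into the medulla, are also continuous, and they carry the water channel Aqp1 and the urea transporter Slc14a1.

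The libraries held between 8168 and 15583 barcodes and between 76678882 and 104454319 UMIs each. Members numbered 12 in the Lac.z day 5 library and 20, 42 and 49 in the day 5, day 14 and day 28 libraries. Ehd3-positive members numbered 7 in the Lac.z day 5 library and 11, 8 and 10 at days 5, 14 and 28, and Ehd3=0 members numbered 5 with Lac.z and 9, 34 and 39 at those days. The median member held 5240 UMIs and 2128 genes, against 4308 UMIs and 1928 genes in Plvap-positive endothelium. The summed member UMIs were 89654 in the Lac.z day 5 library and 244182, 288017 and 276220 at days 5, 14 and 28. Pairs of libraries shared between 9 and 32 kept barcode sequences, none of them between members of different libraries.

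The rule's limits cut through a continuum. Of the members, 5 had an endothelial sum of exactly 3, and 10 further barcodes with a sum of 2 met the rest of the rule. Exactly 1 Ehd3 or Sox17 UMI was held by 21 members, while 44 barcodes with none met the other conditions. Among Plvap-positive cells, 456 held Ehd3 or Sox17, 46 of them with a single Plvap UMI. At the Lrp2 limit, 10 members held 1 UMI and 2 outside barcodes held 2, and 3 outside barcodes were excluded by 1 Ptprc UMI.

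General endothelial genes were found in most members but not in all. At least 5 of 19 general endothelial genes outside the rule, such as the junction cadherin Cdh5, were detected in 24 of 36 Ehd3-positive members, in all 87 Ehd3=0 members and in 630 of 650 Plvap-positive cells. These genes do not separate glomerular or arterial from other endothelium. Of 15 glomerular genes outside the rule, 69.4% of Ehd3-positive members, 27.6% of Ehd3=0 members and 40.8% of Plvap-positive cells held 20 or more UMIs. For 17 arterial genes the values were 61.1%, 80.5% and 32.9% in the same order. The 44 barcodes without Plvap, Ehd3 or Sox17 had 47.7% for the glomerular and 81.8% for the arterial genes. Yet only 10 of those 44 held 5 or more general endothelial genes. High values on these lists are thus not particular to endothelium, and the limit of 20 UMIs was the same for cells of any depth. A separate set of cells was present within the Ehd3-positive members. There, 12 cells held 20 or more UMIs of 17 mesangial, mural and fibroblast genes, against 5 of the 87 Ehd3=0 members and 27 of the 650 Plvap-positive cells. None of these 12 mural-rich cells held a Cdh5 or Sox17 UMI, 9 of them had no UMI of Flt1, Pecam1 or Kdr, and their median depth was 16120 UMIs. Of the other 24 Ehd3-positive members, 21 held Cdh5, and their median depth was 4306 UMIs. The mural-rich cells numbered 2 in the Lac.z day 5 library and 7, 3 and 0 at days 5, 14 and 28. Their deep libraries weighed on sums: they held 59.1% of the Ehd3-positive UMIs in the Lac.z day 5 library and 89.4%, 61.8% and 0.0% at days 5, 14 and 28. The part of these cells in differences that involve the Ehd3-positive sums was not tested. Values without them are given beside some of the results they touch, but not beside all.

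**Figure D1:**
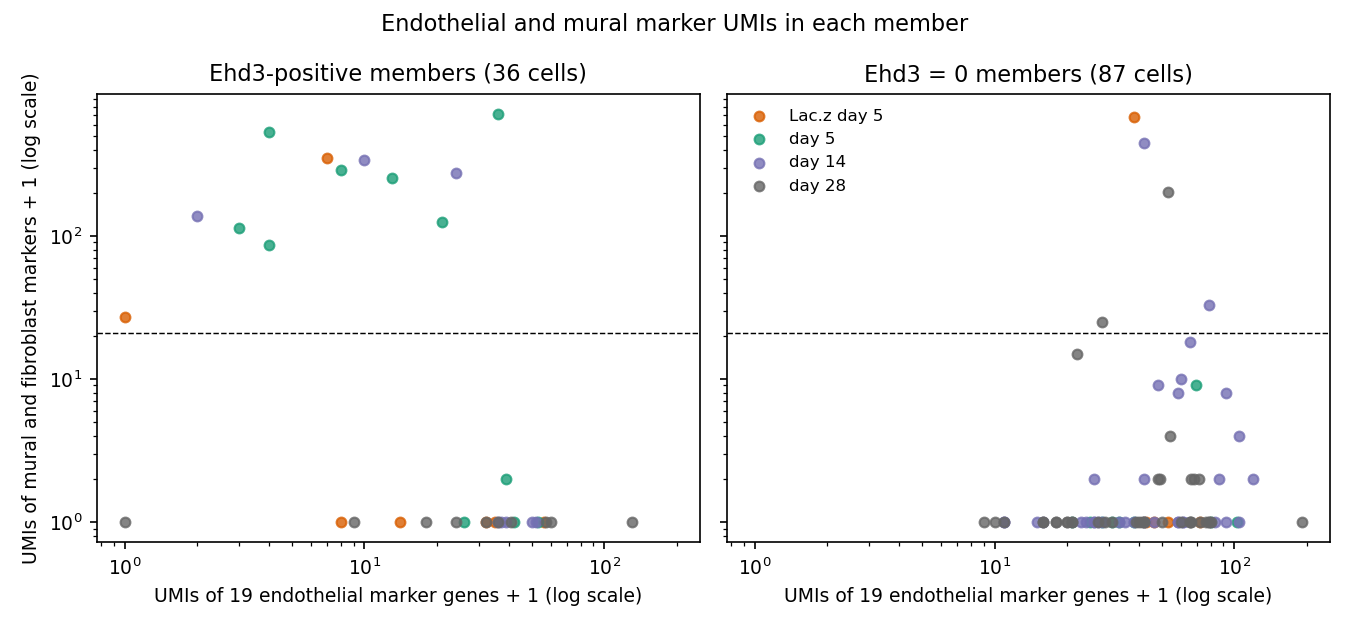
Each point is 1 member, in Ehd3-positive members (left) and Ehd3=0 members (right), coloured by library; the x axis gives its UMIs of 19 endothelial genes outside the rule plus 1, and the y axis its UMIs of 17 mural and fibroblast genes plus 1, both on log scales. The dashed line marks 20 mural UMIs; 12 of 36 Ehd3-positive and 5 of 87 Ehd3=0 members lie on or above it.

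Ehd3 itself was unevenly held. The 17 Ehd3-positive members with a Kdr UMI that were not mural-rich held 151 of the 179 Ehd3 UMIs, with a median of 4 and a highest value of 23 per cell, while the 12 mural-rich cells held 21 Ehd3 UMIs, with a median of 1 and at most 4. A further 6 Ehd3-positive members had Sox17 but no Kdr and a single Ehd3 UMI each. The glomerular gene Plat, which encodes tissue plasminogen activator, followed the same division, with 318 UMIs in the 17 Kdr-holding cells, 53 in the mural-rich cells and 8 in the 6 with Sox17 but no Kdr. Ehd3 also occurred in 241 of 650 Plvap-positive cells, with 460 UMIs and at most 7 in a cell. Sox17 was held by 14 of the 36 Ehd3-positive members, summed to 591 UMIs in the 87 Ehd3=0 members and occurred in 296 Plvap-positive cells. The VEGF receptor Kdr was found in 17 of 36 Ehd3-positive members, 36 of 87 Ehd3=0 members and 539 of 650 Plvap-positive cells. Flt1, the other main VEGF receptor of endothelium, was found in 25 of 36, 82 of 87 and 622 of 650 cells in the same order.

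The first comparison asked which genes outside the rule set members apart from Plvap-positive endothelium of the same kidneys. Genes of the microvascular, fatty-acid-handling capillary were lower in members, and some genes of arteries and of the glomerulus were higher. Counts were summed per library, and the 4 library pairs were fitted with edgeR's quasi-likelihood test with the library as a block and Benjamini-Hochberg adjustment. Of 5796 genes tested, 85 were higher in members (1.47%) and 121 were lower (2.09%) at an adjusted p under 0.05. Without the Lac.z day 5 library the fit called 58 higher and 69 lower, and without the day 14 library 30 higher and 58 lower. Of the 206 genes, 111 and 78 were still called in these fits. All of the 206 that could still be fitted kept their direction. These fits reuse libraries that chose the genes, so the kept direction is no separate check. Mural genes moved with this comparison: the mural list had a median log2 fold change of 1.53 over its 12 tested genes, 1 of which, the smooth-muscle actin gene Acta2, passed.

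Rgcc, a cell-cycle regulator first found as a complement response gene, showed the contrast in every library. In members its summed level was 89.2 CPM (UMIs of a gene scaled to 1000000 UMIs of the sum) in the Lac.z day 5 library and 4.1, 20.8 and 54.3 CPM at days 5, 14 and 28. In Plvap-positive endothelium it was 2147 CPM in the Lac.z day 5 library and 2047, 1427 and 1595 CPM at days 5, 14 and 28. The groups did not overlap, and the log2 fold change was -5.60 ± 0.43 (SE, 4 libraries; adjusted p = 0.000396, edgeR quasi-likelihood). Rgcc was detected in 14 of 123 members, in 522 of 650 Plvap-positive cells and in 97 of 16812 proximal tubule barcodes, which should lack it and whose median depth was 8105 UMIs.

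Lipid handling genes were lower as a group, with 5 of 9 tested genes called lower, none higher, and a median log2 fold change of -2.14 against 0.0258 over all tested genes. Fabp4, a fatty-acid carrier, had 1205 CPM in Lac.z day 5 members and 303, 1687 and 1086 CPM in members at days 5, 14 and 28. In Plvap-positive endothelium Fabp4 had 5367 CPM in the Lac.z day 5 library and 5824, 4166 and 4413 CPM at days 5, 14 and 28. Every member sum lay below every Plvap-positive sum, and the log2 fold change of Fabp4 was -2.30 ± 0.38 (SE; adjusted p = 0.0113, edgeR quasi-likelihood). Its relative Fabp5 fell by 3.48 on the log2 scale (SE 0.31), Gpihbp1, which carries lipoprotein lipase to the capillary lumen, by 2.79 (SE 0.41), the lipoprotein receptor Scarb1 by 2.20 (SE 0.34) and Apoe by 1.06 (SE 0.19).

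Genes of peritubular capillaries and veins were lower as well, 4 of 5 tested and none higher, with a median log2 fold change of -2.99. They were the natriuretic peptide clearance receptor Npr3 (log2 fold change -4.11, SE 0.47), the apelin receptor Aplnr, the orphan receptor Gpr182 (-2.99, SE 0.54) and the growth-factor binder Igfbp3 (-1.99, SE 0.35). Aplnr had no UMI in any member, which allows at most 2.44% of cells with a UMI or 3.34 CPM, against 45.9 CPM in Plvap-positive cells with Lac.z and 100.4, 92.6 and 37.6 CPM in them at days 5, 14 and 28. Btnl9, a butyrophilin-like gene of capillary endothelium, had a log2 fold change of -6.69 (SE 0.51), with no UMI in the members of 3 libraries and 3.6 CPM at day 28. The capillary receptor gene Cd300lg had a log2 fold change of -2.49 ± 0.19 (SE; adjusted p = 0.000396, edgeR quasi-likelihood). Lower genes also included the inactive carbonic anhydrase Car8 (-5.23, SE 0.63), the matrix gene Vwa1 (-4.54, SE 0.46), the cyclooxygenase Ptgs1 (-3.15, SE 0.41) and the endothelin receptor Ednrb (-2.33, SE 0.37).

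Of 15 tested genes of VEGF and angiopoietin signalling, 4 were lower and 2 higher. The angiopoietin receptor Tek had a log2 fold change of -1.46 (SE 0.29), the VEGF-C coreceptor Nrp2 -1.91 (SE 0.37) and the tip-cell gene Esm1 -1.80 (SE 0.21), beside Aplnr. The ligands Vegfa (1.92, SE 0.36) and Vegfc (1.72, SE 0.40) were higher, although Vegfc had no UMI in members of the Lac.z day 5 library. Of 19 general endothelial genes 3 were lower, namely Tek, Egfl7 and the sialomucin Cd34, and 1 was higher. That gene was Cldn5, the tight-junction claudin of endothelium, at 1.43 ± 0.23 (SE; adjusted p = 0.01, edgeR quasi-likelihood).

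**Figure D2:**
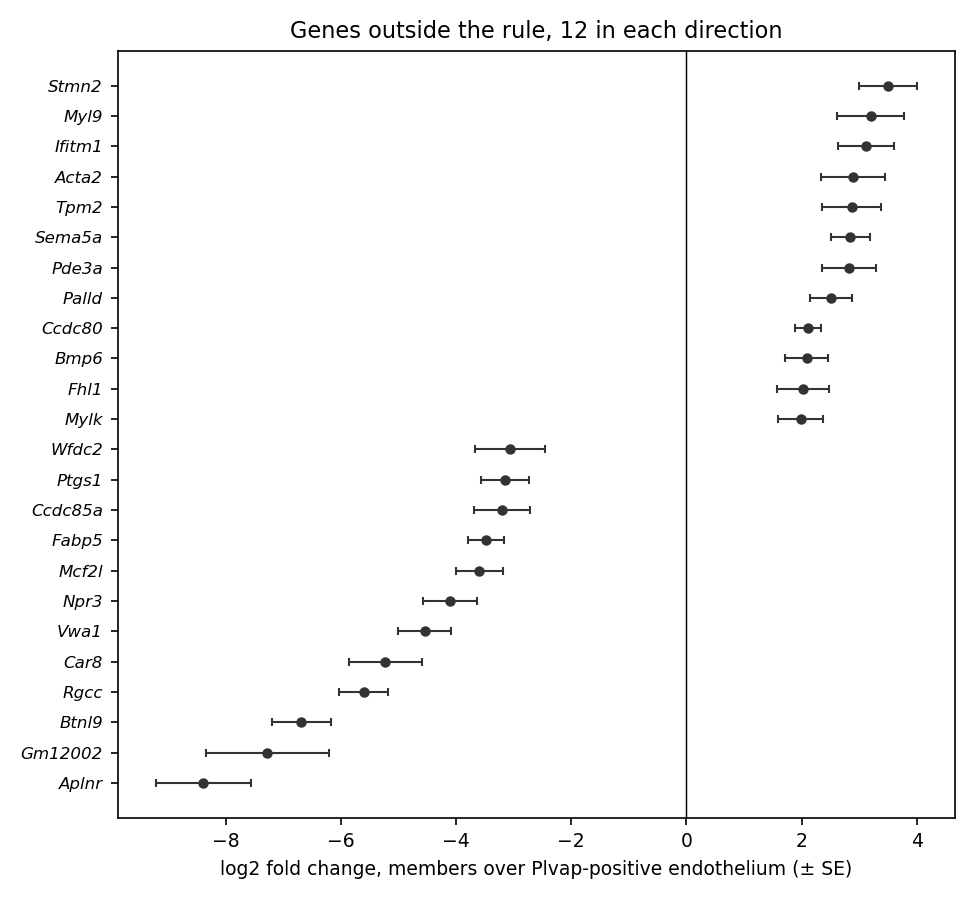
Log2 fold changes of members over Plvap-positive endothelium (points) with their standard errors (bars) for the 12 genes that were highest and the 12 that were lowest among those past an adjusted p of 0.05 with the same sign in all 4 libraries. Aplnr and Gm12002 had no UMI in any member, so their fitted values depend on the prior count; the higher genes range from 1.98 for Mylk to 3.50 for Stmn2.

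Arterial genes were higher in members, 7 of 16 tested and none lower, with a median log2 fold change of 1.03. Stmn2, a microtubule-destabilising protein, had 66.9 CPM in Lac.z day 5 members and 98.3, 302 and 304 CPM in members at days 5, 14 and 28, against 12.9 CPM in Plvap-positive cells with Lac.z and 20.7, 4.6 and 37.6 CPM in them at the same days. Every member sum was above every Plvap-positive sum (log2 fold change 3.50 ± 0.50 SE; adjusted p = 0.00568, edgeR quasi-likelihood). Fbln5, which assembles elastic fibres, had 480 CPM in Lac.z day 5 members and 299, 524 and 724 CPM in members at days 5, 14 and 28. In Plvap-positive endothelium Fbln5 had 171 CPM with Lac.z and 122, 109 and 196 CPM at days 5, 14 and 28, again without overlap (1.82 ± 0.19 SE; adjusted p = 0.00186, edgeR quasi-likelihood). The others were the arterial kinase Bmx (1.83, SE 0.30), the Notch ligand Jag1 (1.63, SE 0.28), the chemokine Cxcl12 (1.32, SE 0.27), the vasoconstrictor Edn1 (1.00, SE 0.20) and Vegfc. The arterial connexins did not pass: Gja5 had 1.43 with an adjusted p of 0.0667 and Gja4 0.80 with 0.155 (edgeR quasi-likelihood).

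Glomerular genes outside the rule were higher in 4 of 11 tested and lower in 1. Plat had 892 CPM in Lac.z day 5 members and 426, 625 and 706 CPM in members at days 5, 14 and 28, against 158 CPM in Plvap-positive cells with Lac.z and 139, 259 and 205 CPM in them at days 5, 14 and 28. No member sum overlapped a Plvap-positive sum (log2 fold change 1.84 ± 0.21 SE; adjusted p = 0.00231, edgeR quasi-likelihood). The semaphorin Sema5a (2.85, SE 0.34), the transcription factor Tbx3 (1.46, SE 0.30) and the matrix protein Fbln2 (1.54, SE 0.33, higher in 3 of 4 libraries) were also higher, while Igfbp5 was lower (-2.58, SE 0.31). Most Sema5a UMIs of Ehd3-positive members lay in mural-rich or tubule-rich cells, as given below. Summed over 15 glomerular genes outside the rule, members had 3057 CPM and Plvap-positive endothelium 4016 CPM. Of 5 genes of the descending vasa recta 3 were higher, namely Slc14a1 (1.99, SE 0.37, higher in 3 of 4 libraries), Aqp1 (1.11, SE 0.21) and the actin-severing protein Scin (1.03, SE 0.21).

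Contractile genes were among the 12 highest, namely Myl9, Acta2, Tpm2 and Mylk, whose products belong to the smooth-muscle contractile apparatus. Their UMIs came mainly from mural-rich cells: Acta2 summed to 949 UMIs in 19 of 123 members but to 18 UMIs in 4 of the 100 members that held fewer than 20 mural and fewer than 20 tubule UMIs. Acta2 and Myl9 lost their calls when the day 14 library was left out. Of 9 tested genes linked to mesenchymal transition 4 were higher, namely Acta2, the intermediate filament gene Vim, S100a4 and the transcription factor Zeb2. Mural-rich cells held 30.8% of all member UMIs and 12.7% of those of Plvap-positive endothelium. Their part in the calls of Vim, S100a4 and Zeb2 was not tested. No gene of the interferon response (34 tested) was called, and of the class I antigen presentation genes 1 of 15 was, H2-T23, lower in members.

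The second comparison set Ehd3-positive against Ehd3=0 members, again within the 4 libraries. Few genes could be tested at this depth, and those higher in Ehd3-positive members included the glomerular genes Plat, Lpl and Sema5a and the matrix gene Nid1. Of 1182 tested genes, 9 were higher (0.761%) and 2 lower (0.169%) by edgeR's quasi-likelihood test, and 166 had an unadjusted p under 0.05. Of 7 tested glomerular genes 3 were higher and 0 lower, with a median log2 fold change of 2.93, and of 12 arterial genes none was called, with a median of -1.01, against -0.0225 over all tested genes. Leaving out the Lac.z day 5 or the day 14 library left 0 genes called, with 209 and 77 at an unadjusted p under 0.05. Without the day 5 library 1 gene was called, none of these 11, and without day 28 there were 57.

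Plat had 1853 CPM in the Ehd3-positive members of the Lac.z day 5 library and 586, 1466 and 2416 CPM at days 5, 14 and 28. Plat in Ehd3=0 members had 62.4 CPM with Lac.z and 88.9, 357 and 394 CPM at days 5, 14 and 28. The groups did not overlap, and the log2 fold change was 2.93 ± 0.42 (SE; adjusted p = 0.0339, edgeR quasi-likelihood). In Ehd3-positive members without mural-rich and tubule-rich cells, Plat was higher still, at 4294 CPM with Lac.z and 3751, 3158 and 2489 CPM at days 5, 14 and 28. Lpl, the lipoprotein lipase gene, stood at 193 CPM in Ehd3-positive members with Lac.z and 375, 302 and 868 CPM at days 5, 14 and 28. Lpl in Ehd3=0 members stood at 41.6, 0, 13.7 and 12.8 CPM in the same libraries, and the log2 fold change was 4.98 ± 0.66 (SE; adjusted p = 0.0339, edgeR quasi-likelihood). Lpl was also present in 7227 of 16812 proximal tubule barcodes, at 141 CPM, so its level in Ehd3=0 members lay below that of tubule.

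Sema5a was 3.91 ± 0.54 higher on the log2 scale (SE; adjusted p = 0.0339, edgeR quasi-likelihood), but 46 of its 59 UMIs in Ehd3-positive members lay in mural-rich or tubule-rich cells. The other higher genes were Ccdc80, the basement membrane linker Nid1, the chemokine Cx3cl1, the collagen chaperone Serpinh1, the lipid phosphatase Plpp3 and Mxra7, with log2 fold changes between 2.03 and 3.32. Without mural-rich and tubule-rich cells, Plpp3 had 1471 CPM in Ehd3-positive members with Lac.z and 2216, 1842 and 2054 CPM at days 5, 14 and 28, against 0, 91.0, 152 and 405 CPM in Ehd3=0 members of the same libraries. Ccdc80, Nid1 and Cx3cl1 were also higher in all 4 libraries without those cells, on 16, 13 and 22 UMIs in all in Ehd3-positive members. Serpinh1 and Mxra7 were not: at day 14 Serpinh1 had 113 CPM in Ehd3-positive and 168 CPM in Ehd3=0 members, and Mxra7 had 37.6 CPM and 52.4 CPM. Lower in Ehd3-positive members were Rsad2, an interferon-induced antiviral enzyme (-2.50, SE 0.38), and the stress gene Gadd45g (-2.07, SE 0.35).

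**Figure D3:**
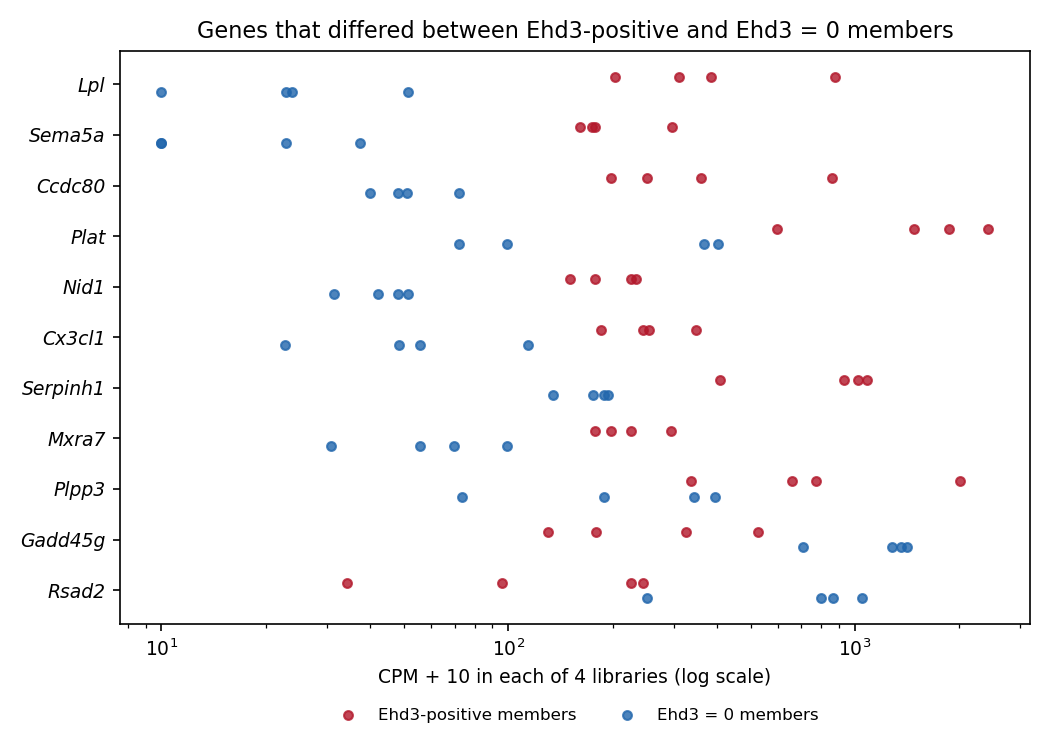
Summed level of the 11 genes that differed between Ehd3-positive (red) and Ehd3=0 (blue) members, 1 point per library, as CPM plus 10 on a log axis. Sums of the 2 groups lie apart for Lpl, Sema5a and Plat, and Rsad2 and Gadd45g are lower in Ehd3-positive members.

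The Ehd3=0 members were themselves of more than 1 kind. Slc14a1, the urea transporter of the descending vasa recta, was held by 20 of 87, and all 20 also held Scin and Aqp1. None of these 20 held Stmn2, which 28 other Ehd3=0 members held. Among Plvap-positive cells the pattern recurred, with Slc14a1 in 36 cells, 35 of them with Aqp1 and 32 with Scin, and none with Stmn2, which 21 other cells held. The arterial connexin Gja5 was found in 9 of the 20 Slc14a1-holding members and in 8 of the 28 with Stmn2. Slc14a1 was detected in 11 of 16812 proximal tubule barcodes. These cells met the rule, although the label names glomerular and arterial endothelium and Slc14a1, Aqp1 and Scin belong to the descending vasa recta list.

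Members were also set against the 44 endothelial barcodes that lacked Plvap, Ehd3 and Sox17. Of those 44 barcodes 31 were mural-rich, and 10 held at least 5 endothelial genes. By edgeR's quasi-likelihood test 135 of 3842 genes were higher in members (3.51%), led by the ephrin Efnb2 (log2 fold change 5.99, SE 0.73) and Edn1 (5.93, SE 0.67), and 80 were lower (2.08%), among them the fibroblast proteoglycan Dcn (-3.11, SE 0.65). Leaving out the Lac.z day 5 or the day 14 library ended all calls, with 659 and 392 genes at an unadjusted p under 0.05. The call count was 85 without the day 5 library and 369 without the day 28 library.

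The share of members among endothelial barcodes was larger late after injury, and with all members counted the Ehd3=0 cells made up the difference. Ehd3=0 members were 4.07% of 123 endothelial barcodes in the Lac.z day 5 library (exact 95% interval 1.33% to 9.23%). They were 4.41% of 204 at day 5 (2.04% to 8.21%), 14.2% of 240 at day 14 (10.0% to 19.2%) and 15.6% of 250 at day 28 (11.3% to 20.7%). The ratio over day 5 was 3.21 at day 14 (1.51 to 7.61) and 3.54 at day 28 (1.69 to 8.30). Ehd3-positive members were 5.69% with Lac.z and 5.39%, 3.33% and 4.00% at days 5, 14 and 28, with intervals that overlapped throughout. Without mural-rich and tubule-rich cells they were 2.26%, 2.525% and 4.225% at days 5, 14 and 28. The day 28 ratio over day 5 was then 1.87 (0.522 to 8.31) for Ehd3-positive and 3.53 (1.605 to 8.83) for Ehd3=0 members. At equal time, Lac.z day 5 and day 5 shares were indistinguishable at this depth: the ratio of Ehd3=0 shares was 0.921 (0.243 to 3.06) and that of all member shares 0.995 (0.443 to 2.14).

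Depth and the choice of denominator bore on these ratios. After each cell was thinned to 2000 UMIs, the Ehd3=0 share was 2.40 times that of day 5 at day 14 (1.28 to 4.79) and 1.80 times at day 28 (0.938 to 3.64). Thinning also changed the split: at day 5 there were 4 Ehd3-positive members in place of 11 and 14 Ehd3=0 members in place of 9. Among all kept barcodes the Ehd3=0 ratio over day 5 was 2.80 at day 14 (1.31 to 6.63) and 2.17 at day 28 (1.03 to 5.10). For all members that ratio was 1.555 at day 14 (0.8926 to 2.795) and 1.228 at day 28 (0.7166 to 2.181), with intervals that include no difference. The day 14 and day 28 matrices were written by a later version of the counting software than both day 5 matrices, 3.1.0 against 3.0.2, and the effect of that version cannot be told apart from that of time.

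**Figure D4:**
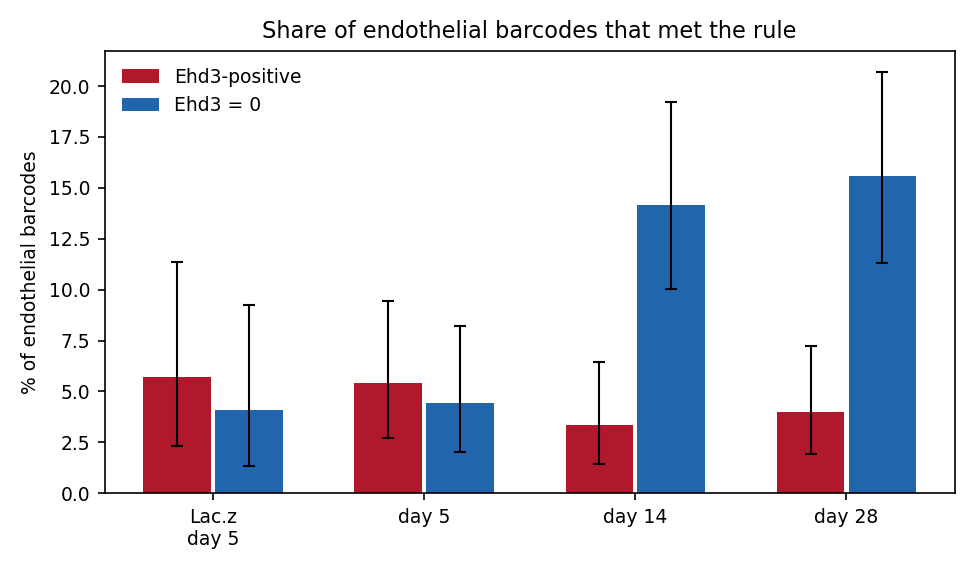
Percentage of endothelial barcodes that were Ehd3-positive (red) or Ehd3=0 (blue) members in each library, with exact 95% binomial intervals (bars). The Ehd3=0 share is 4.41% at day 5, 14.2% at day 14 and 15.6% at day 28, while the Ehd3-positive share lies between 3.33% and 5.69%.

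The next comparison was Lac.z day 5 against day 5, which differ by the probiotic at the same time after injury. Interferon-induced genes were higher in the members of the Lac.z kidney, in Ehd3-positive and Ehd3=0 members alike, and also in Plvap-positive endothelium and in proximal tubule barcodes. Levels are CPM of the summed cells, and a gene was measured when both sums together held at least 30 UMIs, so a gene high in only 1 library could pass through that library. In members, 116 of 1810 measured genes were at least 2-fold higher (6.41%) and 212 at least 2-fold lower (11.7%). In Ehd3=0 members these were 50 (8.35%) and 82 (13.7%) of 599, and in Plvap-positive endothelium 177 (2.86%) and 178 (2.88%) of 6191. Of 34 interferon genes 12 were measured in members, and 11 of them were at least 2-fold higher and none lower (median log2 ratio 2.67). In Plvap-positive endothelium all 34 were measured, and 26 were at least 2-fold higher (median 1.33).

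Irf7, the transcription factor that amplifies interferon production, was found in 8 of 12 Lac.z day 5 members and in 2 of 20 day 5 members. Its level in Ehd3-positive members was 337 CPM with Lac.z and 12.1 CPM at day 5, and in Ehd3=0 members it was 624 CPM with Lac.z, against no UMI at day 5, which allows at most 38.1 CPM. Over all members there were 44 Irf7 UMIs with Lac.z and 2 at day 5, a ratio of 59.9 (95% interval 15.6 to 510). Irf7 was also higher with Lac.z in Plvap-positive endothelium (667 CPM with Lac.z and 133 CPM at day 5) and in proximal tubule barcodes (54.6 CPM and 7.8 CPM). Each of these cell groups thus had more Irf7 with Lac.z than without it, which was not tested for want of replicates.

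Isg15, a ubiquitin-like protein attached to others during the interferon response, had 746 CPM in Ehd3-positive members and 873 CPM in Ehd3=0 members with Lac.z, and 60.4 and 38.1 CPM in the same groups at day 5. Isg15 was 15.3 times higher in all members (8.41 to 30.1), and stood at 806 CPM with Lac.z and 168 CPM at day 5 in Plvap-positive endothelium. Bst2, the virus-tethering protein tetherin, had 1396 CPM and 1538 CPM in Ehd3-positive and Ehd3=0 members with Lac.z, and 66.5 CPM and 178 CPM at day 5 (ratio over all members 14.4, 9.33 to 23). In Plvap-positive endothelium Bst2 had 1601 CPM with Lac.z and 628 CPM at day 5, and in proximal tubule barcodes 113 CPM and 25.2 CPM. Members thus reached levels near those of Plvap-positive endothelium with Lac.z, and lay below them at day 5.

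Mural-rich cells weighed on both sums: 3 of the 12 Lac.z day 5 members held 51.2% of their UMIs and 7 of the 20 day 5 members held 60.6%, and 1 mural-rich cell held 44.4% of the UMIs of the 5 Ehd3=0 members with Lac.z. The interferon difference was still present without those cells. In members with fewer than 20 mural and fewer than 20 tubule UMIs, Irf7 had 754 CPM with Lac.z and 13.8 CPM at day 5, Isg15 had 1166 and 55.1 CPM, and Bst2 had 2331 and 207 CPM.

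Class I antigen presentation genes were higher with Lac.z in 6 of 11 measured (median log2 ratio 1.06) and lower in none. B2m, the invariant light chain of class I molecules, had 1926 CPM in Ehd3-positive and 1226 CPM in Ehd3=0 members with Lac.z, and 496 CPM and 368 CPM in those groups at day 5, a ratio of 3.41 over all members (2.64 to 4.42). B2m in Plvap-positive endothelium was 1990 CPM with Lac.z and 1445 CPM at day 5. In the other direction Klf4, a flow-induced transcription factor of quiescent endothelium, was lower with Lac.z in Ehd3=0 members, at 520 CPM with Lac.z and 1537 CPM at day 5 (2.96-fold, 1.91 to 4.75). In Plvap-positive endothelium Klf4 ran the other way, at 619 CPM with Lac.z and 371 CPM at day 5.

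Several of these interferon genes share a promoter sequence. These stretches are shown because they hold the letters GAAANNGAAA, or TTTCNNTTTC on the other strand, the core of elements bound by interferon regulatory and ISGF3 factors. They run 5′ to 3′ on the gene's strand from 50 bases before the first match to 50 bases after the last, in RefSeq's GRCm38.p6, with the matches in capitals; overlapping matches in Isg15 and Bst2 run together.
Isg15: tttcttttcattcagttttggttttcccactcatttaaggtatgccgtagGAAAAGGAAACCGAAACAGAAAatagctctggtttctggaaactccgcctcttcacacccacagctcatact
Bst2: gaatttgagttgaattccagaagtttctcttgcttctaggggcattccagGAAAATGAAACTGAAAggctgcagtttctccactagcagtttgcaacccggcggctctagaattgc
Ifit3: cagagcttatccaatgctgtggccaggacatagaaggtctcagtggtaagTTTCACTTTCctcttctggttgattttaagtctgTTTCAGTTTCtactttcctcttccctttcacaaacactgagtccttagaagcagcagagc
Ifit1: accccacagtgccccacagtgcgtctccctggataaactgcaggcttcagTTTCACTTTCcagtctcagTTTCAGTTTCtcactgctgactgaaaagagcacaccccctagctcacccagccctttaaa
They lie at chr4:156200825-156200946 (minus strand, Isg15), chr8:71537537-71537652 (minus, Bst2), chr19:34583323-34583466 (plus, Ifit3) and chr19:34640735-34640863 (plus, Ifit1). The match nearest to the start began 66 bases before it in Isg15, 124 in Bst2, 122 in Ifit3 and 85 in Ifit1. Of the 34 interferon genes 25 had a RefSeq window of 250 bases before to 50 after the start, and 17 of those (68.0%) held the letters, against 1079 of 27025 genes with a window (3.99%); of all 32851 windows 3.44% held them. Irf7 and Ifi44 held none in theirs. A match is a description of letters and was not tested as a binding site.

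The last comparisons set days 14 and 28 against day 5. They share the day 5 library with each other and with the Lac.z comparison, so that a low day 5 value raises all of them. In members, 403 of 2950 measured genes were at least 2-fold higher at day 14 (13.7%) and 227 lower (7.69%), and at day 28 there were 439 (15.1%) and 249 (8.57%) of 2906. The makeup of the sums moved with these counts: the mural list had 7 of 7 measured genes at least 2-fold lower at day 28 in members, and the general endothelial list had 15 of 17 higher, while mural-rich cells held 60.6% of member UMIs at day 5, 22.8% at day 14 and 6.18% at day 28, and their part in the counts was not tested. Ehd3=0 members are given first. None of them was mural-rich at day 5, but 1 of the 9 held 20 or more tubule marker UMIs. That cell alone held 30.2% of the UMIs of the day 5 Ehd3=0 sum. In Ehd3=0 members 237 of 1676 genes were higher at day 14 (14.1%) and 75 lower (4.47%), and at day 28 there were 200 (11.5%) and 63 (3.63%) of 1736. In Plvap-positive endothelium 325 (4.26%) were higher and 164 (2.15%) lower of 7635 at day 14, and 364 (5.12%) and 279 (3.93%) of 7106 at day 28.

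Cdkn1a, which encodes the cell-cycle inhibitor p21, was higher late after injury in every endothelial group. In Ehd3=0 members it had 127 CPM at day 5, 1263 CPM at day 14 and 1832 CPM at day 28, with UMIs in 3 of 9, 29 of 34 and 37 of 39 cells. In Ehd3-positive members Cdkn1a had 12.1, 517 and 1924 CPM at those days, in 2 of 11, 6 of 8 and 9 of 10 cells, and 114, 940 and 1982 CPM without mural-rich and tubule-rich cells. Plvap-positive endothelium had 100.4, 590 and 1064 CPM, and proximal tubule barcodes had 17.8, 21.4 and 31.8 CPM with a UMI in 1353 of 16812. The Cdkn1a ratio over day 5 in Ehd3=0 members was 9.94 at day 14 (5.33 to 21.0) and 14.4 at day 28 (7.77 to 30.3). In Ehd3=0 members without mural-rich and tubule-rich cells it stood at 182, 1356 and 1984 CPM. With Lac.z at day 5, Cdkn1a had 48.1 CPM in Ehd3-positive and 312 CPM in Ehd3=0 members, on 2 and 15 UMIs. In its list of growth-arrest genes, 4 of 5 measured were at least 2-fold higher in Ehd3=0 members at day 14 and 4 of 5 at day 28.

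Genes of the descending vasa recta followed. Slc14a1 had no UMI in the 9 Ehd3=0 members of day 5, which allows at most 33.3% of cells with a UMI or 38.1 CPM, and 728 CPM at day 14 in 9 of 34 cells and 407 CPM at day 28 in 10 of 39 cells. With a floor of 3 UMIs for the day 5 sum, the Slc14a1 ratio in Ehd3=0 members was 19.1 at day 14 and 10.7 at day 28. That floor treats UMIs as independent, while the Slc14a1 UMIs of days 14 and 28 lay in a minority of cells. The limit of 33.3% of cells at day 5 lies above the 9 of 34 and 10 of 39 cells. An equal fraction of Slc14a1-holding cells at day 5 is therefore not excluded. The Lac.z day 5 members held 11 Slc14a1 UMIs in 1 cell. Plvap-positive endothelium had 22.9, 118.6 and 48.8 CPM of Slc14a1 at days 5, 14 and 28. Aqp1 in Ehd3=0 members had 381 CPM at day 5, 2738 CPM at day 14 and 2406 CPM at day 28, in 2 of 9, 17 of 34 and 16 of 39 cells. Aqp1 is also a proximal tubule gene, and tubule barcodes held 97.7, 222 and 179 CPM of it at those days.

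Interferon and class I genes were higher in Ehd3=0 members at both later days as well. Of 34 interferon genes 17 were measured at day 14, of which 13 were at least 2-fold higher (median log2 ratio 1.81), and 18 at day 28, of which 15 were higher (median 1.89). In Plvap-positive endothelium 5 of 34 were higher at day 14 (median 0.559) and 11 at day 28 (median 0.793), so the measured genes of the groups differ. The Ehd3=0 sum held 78705 UMIs at day 5 and 218441 at day 14, and a gene could be measured through the later day alone. Over all members, 18 of 21 measured interferon genes were higher at day 14 and 18 of 20 at day 28. With at least 100 UMIs these were 4 of 7 and 5 of 7. Irf7 in Ehd3=0 members had no UMI at day 5, 188 CPM at day 14 and 206 CPM at day 28, and Bst2 had 178, 618 and 659 CPM. In Plvap-positive endothelium Irf7 had 133, 198 and 368 CPM and Bst2 628, 768 and 1117 CPM at days 5, 14 and 28. In Ehd3-positive members only 4 interferon genes were measured at day 14, and none was 2-fold higher (median -0.222). Mural-rich cells held 89.4% of the UMIs of the Ehd3-positive sum at day 5 and 61.8% at day 14. These values therefore say little about the other Ehd3-positive members. The difference between the groups was not tested.

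Of 16 class I genes 14 were measured in Ehd3=0 members at each later day, and 11 were at least 2-fold higher at day 14 (median log2 ratio 1.57) and 10 at day 28 (median 1.78), against 0 of 15 on both days in Plvap-positive endothelium (medians 0.125 and 0.421). H2-D1, a class I heavy chain, had 1309 CPM at day 5, 2738 CPM at day 14 and 3039 CPM at day 28 in Ehd3=0 members, and 2245, 2396 and 3005 CPM in Plvap-positive endothelium. B2m had 368, 1859 and 1973 CPM in Ehd3=0 members and 1445, 2028 and 2398 CPM in Plvap-positive endothelium. In these sums both genes were thus lower in Ehd3=0 members at day 5 and stood near the Plvap-positive level on days 14 and 28. H2-Q6 and H2-Q7 had larger ratios but are near-identical copies whose reads may be split between them. The tubule-rich day 5 cell held 30.2% of the UMIs of the day 5 Ehd3=0 sum. Its part in the Ehd3=0 interferon and class I values was not tested. Over all members without mural-rich and tubule-rich cells, the class I median was 1.48 at day 14 and 1.53 at day 28. The interferon median of the same cells was 1.32 at day 14 and 1.36 at day 28.

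**Figure D5:**
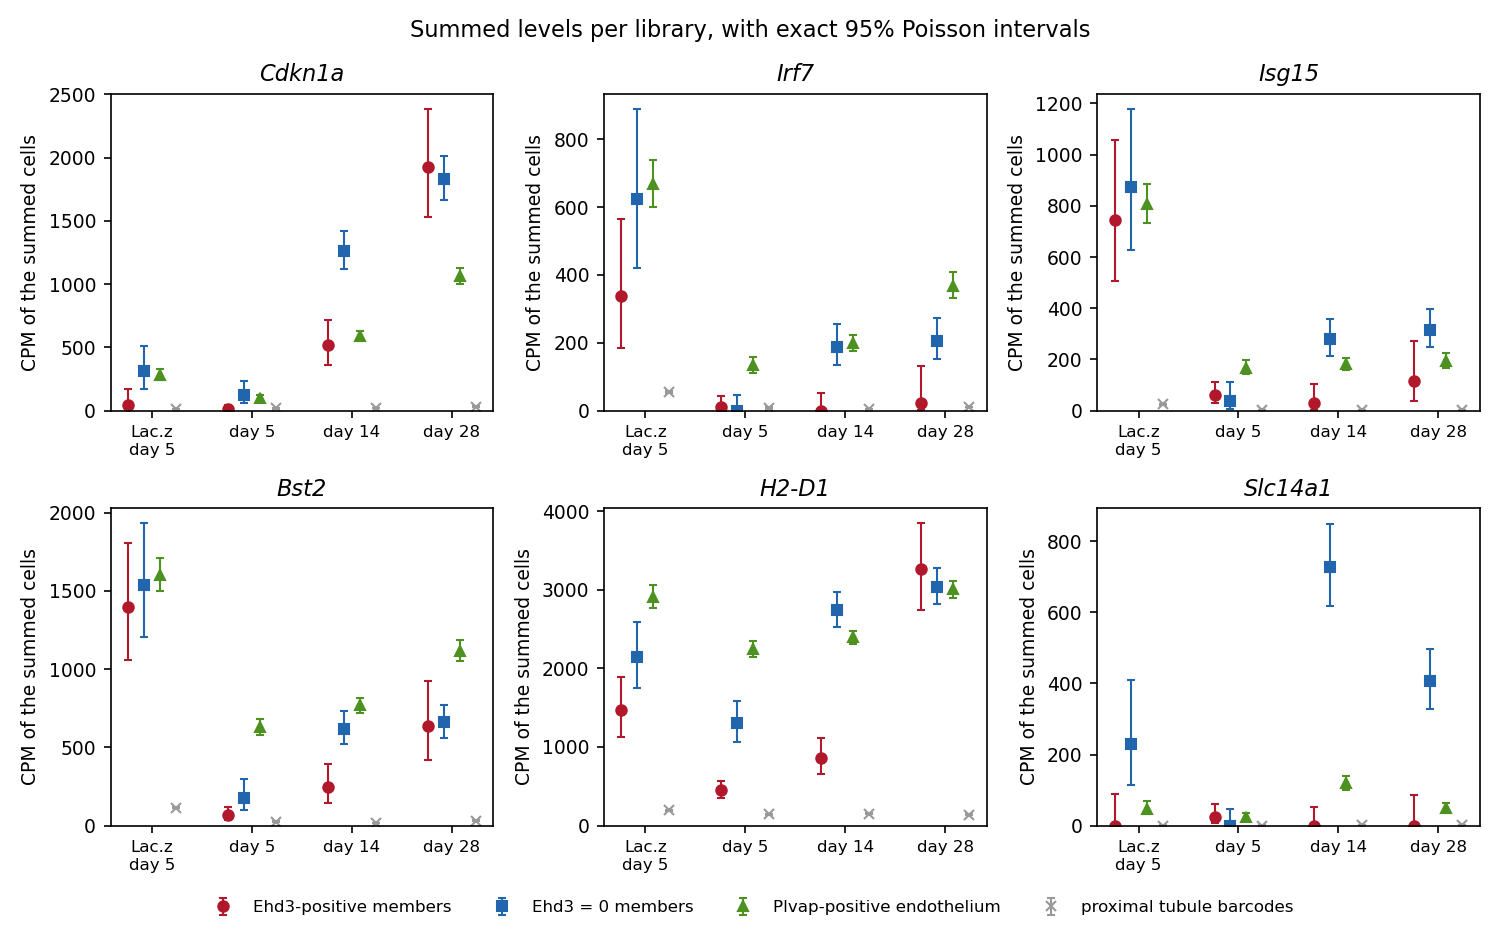
Summed level (CPM, linear axes) of Cdkn1a, Irf7, Isg15, Bst2, H2-D1 and Slc14a1 in Ehd3-positive members, Ehd3=0 members, Plvap-positive endothelium and proximal tubule barcodes of each library, with exact 95% Poisson intervals (bars) that cover counting error only. Cdkn1a in Ehd3=0 members is 127 CPM at day 5 and 1832 CPM at day 28, and Bst2 in the same cells is 1538 CPM with Lac.z and 178 CPM at day 5.

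Stress-response genes were also higher in Ehd3=0 members late after injury. Of the immediate early genes, 10 of 16 measured were at least 2-fold higher at day 14 and 7 of 15 at day 28, and in Plvap-positive endothelium 15 and 10 of 18 were. Fos had 2109, 5507 and 4182 CPM at days 5, 14 and 28 in Ehd3=0 members, 1019, 4204 and 3172 CPM in Plvap-positive endothelium and 596, 1552 and 730 CPM in proximal tubule barcodes. Of 10 measured heat shock genes 5 were higher at day 14 and 6 at day 28, with Hspa1a at 305, 1085 and 1203 CPM at days 5, 14 and 28. Gm42418, which overlaps ribosomal RNA and is often read as a sign of RNA quality, was also higher in Ehd3=0 members, 5.34-fold at day 14 (4.81 to 5.94) and 3.71-fold at day 28 (3.34 to 4.13), and in Plvap-positive endothelium 3.8-fold and 3.14-fold. Its part in these differences was not tested. Cst3, the secreted protease inhibitor cystatin C, was lower in Ehd3=0 members, with 5756 CPM at day 5, 2133 CPM at day 14 and 2350 CPM at day 28, while Plvap-positive endothelium had 1136, 1222 and 1484 CPM. At day 5, 1 cell held 30.2% of the UMIs of the Ehd3=0 sum.

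The number of arterial genes past 2-fold against day 5 was not alike in the cell groups, a difference that was not tested. Over all members 10 of 14 measured were at least 2-fold higher at day 14 and 12 of 14 at day 28, with 1 lower on each day, and in Ehd3-positive members 4 of 6 and 4 of 5 were higher, while the share of UMIs in mural-rich cells was lower on both days than at day 5; its part was not tested. In Ehd3=0 members 3 of 14 measured arterial genes were at least 2-fold higher at day 14 and 1 lower, and 1 of 13 was higher and 1 lower at day 28. Fbln5 had 686 CPM with Lac.z at day 5 and 585, 581 and 638 CPM at days 5, 14 and 28 in Ehd3=0 members. The glomerular gene Plat in Ehd3-positive members without mural-rich and tubule-rich cells lay between 2489 and 4294 CPM in the 4 libraries. Those sums rest on 4 to 9 cells a library.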

How the data were processed

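Single-cell RNA of 4 mouse kidney libraries was used as raw UMI counts per gene and barcode, which the authors deposited as matrices written by software versions 3.0.2 (both day 5 libraries) and 3.1.0 (days 14 and 28), per the file headers. The submitters' processing notes name build mm10, and the sources used here give no other upstream step. Kept barcodes had 200 or more genes and no more than 50% of UMIs from mitochondrial genes. Member rule and gene lists were chosen with earlier results of these data known.

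Counts were summed per library and cell group. Pairs of cell groups were compared with edgeR 4.0.16 (quasi-likelihood, TMM, filterByExpr, library as block, the 9 rule genes left out, false discovery rate 0.05, R 4.3.3), checked on simulated data. The block rests on both sums coming from the same library. Libraries were compared, without a test, as CPM ratios of genes with at least 30 UMIs over both sums, with exact conditional 95% intervals, and a floor of 3 UMIs where a sum was 0. Intervals and floors cover counting error only. Named genes were the 12 with the largest change in each direction (edgeR, same sign in all libraries) and the 10 in each direction (libraries, UMIs in at least 5 cells, no cell above 30% of UMIs), beside the members of fixed lists; genes outside these rules were chosen after their values were seen. Cells with 20 or more mural or tubule UMIs were set apart after seeing the data. Doublets were kept: Scrublet (scanpy 1.11.5) at its own threshold marked 1 barcode in the Lac.z day 5 library and 161, 63 and 2 at days 5, 14 and 28, and removal of 0.8% per 1000 barcodes was an alternative. Others were DESeq2 1.42.0, other size factors, no filter, no block, stricter limits, thinning to 2000 UMIs and leaving out each library.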

Additional observations from a re-analysis of the deposited data

Results flagged for a closer look

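Igfbp7, a secreted growth-factor binder, differed in opposite directions between cell groups at day 28 against day 5. In Ehd3=0 members its ratio was 3.04 (95% interval 2.21 to 4.27), from 388 UMIs at day 28 and 43 at day 5. In Plvap-positive endothelium the Igfbp7 ratio was 0.395 (0.368 to 0.423), from 1143 UMIs at day 28 and 2694 at day 5. The difference between the groups was not tested, with 1 library each.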

How the results depend on the processing

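The count of genes that differed between members and Plvap-positive endothelium was 206, and was 733 with no filter on low counts and 88 to 198 with 1 library left out. Between Ehd3-positive and Ehd3=0 members it was 11, and was 35 with DESeq2, 369 with no filter, 3 after Scrublet removal, 4 after thinning, 3 with an endothelial sum of at least 5 and 0 to 57 with 1 library left out. Against other Plvap-negative endothelium it was 215, and was 834 with no filter, 35 with no replicate block, 15 after thinning, 0 with an endothelial sum of at least 5 (602 at an unadjusted p under 0.05, edgeR) and 0 to 369 with 1 library left out. Without the block the other 2 comparisons stayed within 1.5 times of their counts.

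Genes past 2-fold in members numbered 328 for Lac.z day 5, 630 for day 14 and 688 for day 28 against day 5. In that order they numbered 677, 1221 and 1257 past 1.5-fold, 69, 170 and 197 with at least 100 UMIs, 132, 312 and 263 in Ehd3=0 members alone, and 74, 208 and 210 without mural-rich and tubule-rich cells. Ehd3-positive members alone gave 271 at day 14 and 428 at day 28. The class I median in Ehd3-positive members alone was 1.7 with Lac.z (1.06 in all members) and 0.69 at day 14 (1.54). The interferon median in Ehd3-positive members alone was -0.22 at day 14, against 1.83 in all members, and 0.49 at day 28, against 2.15; without mural-rich and tubule-rich cells it was 1.36 at day 28. Spry1 with Lac.z against day 5 was lower in the sums, but its ratio was 1.211 as a mean over cells of CPM. The causes were not tested. Every share ratio between libraries stayed within its interval under the alternatives run, but some day 5 shares did not: Ehd3-positive members were 5.39% of endothelial barcodes (2.72% to 9.44%), 2.29% after thinning and 2.26% without mural-rich and tubule-rich cells, and members were 0.282% of kept barcodes (0.172% to 0.436%) and 0.169% without those cells. With 5 to 39 Ehd3=0 cells a library, counting error limits the library comparisons.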
